A study of Mus musculus with 56 samples.

Results

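Liver RNA of mice that had lost 1 copy of the Sult1a1 to Spn interval was compared with that of wt mice over all probe sets of the array. The arrays were chosen by their labels for tissue and genotype, with no measured value used, and they were 9 of the 56 arrays of the series: 3 of Del/+ livers and 6 of wt livers. All mice were adult males on the C57BL/6N background that had been through behavioural testing. Del/+ mice carried a heterozygous deletion from Sult1a1 to Spn, made by Cre-loxP engineering, wt mice carried neither rearrangement, and the 3 Dup/+ livers of the same normalization, set beside them where stated, carried the reciprocal duplication. Each array held 1 liver, and a liver is called by its genotype with the number of its mouse: Del/+ 11, 26 and 28, and wt 10, 16, 17, 29, 48 and 49. Nothing in the labels says whether the mice were littermates, so the p-values measure the spread between these livers. Values are log2 signals, on which a difference of -1 is a halving of signal, and liver medians per array lay between 3.58 and 3.65. The 95th percentile of the wt means of 1405 olfactory and vomeronasal receptor probe sets, which should be silent in liver, was 3.15 and is taken here as background.

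The interval on mouse chromosome 7 corresponds to the human 16p11.2 region, whose deletion and duplication are recurrent copy number variants. It holds 31 protein-coding genes, among them kinases, phosphatase subunits, chromatin proteins and metabolic enzymes. A heterozygous loss leaves a single template, and a transcript in proportion to its gene copies then loses 1 log2 unit at most, less where background adds to the signal. The liver is composed mainly of hepatocytes, which store glycogen, make fatty acids and cholesterol, and oxidize fat during fasting. Much of that program follows the daily clock, in which ARNTL pairs with CLOCK or NPAS2 at E-boxes, PER and CRY proteins repress that pair, NR1D1 and NR1D2 repress Arntl through ROR elements, and DBP, TEF and HLF activate D-boxes that NFIL3 represses.

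The tissue label held. Alb (albumin), Ttr (transthyretin), Ahsg and Cps1 averaged over 12 in both genotypes, and the mean level of the 10 hepatocyte markers was 12.20 to 12.23 in Del/+ livers and 12.04 to 12.21 in wt livers. The 15 Kupffer cell and macrophage markers averaged 7.06 to 7.49 in Del/+ livers, against 6.78 to 7.69 in wt livers, and none passed an unadjusted p under 0.05. All 15 had a positive difference, with a median of 0.17, which was 0.0423 without Del/+ 28 and 0.29 with a term for 3 livers explained below. In whole tissue, a change in the number of cells of a type and a change in RNA per cell cannot be told apart. Of the other cell type lists, 0 of 10 tested sinusoidal endothelial and 0 of 6 stellate cell markers passed that p, 1 of 7 bile duct markers was higher (Tff2, 0.56) and 1 of 11 lymphocyte markers was higher (Cd4, 0.58). Of 7 tested adipocyte markers 1 was lower (Retn, -0.43) and 5 had a negative difference, with a median of -0.33. Their mean, as a difference from wt, was -0.37, -0.27 and -0.30 in Del/+ livers, against -0.26 to 0.21 in wt livers. Del/+ 26 and wt 10 nearly tied, at -0.267 and -0.264, so the genotypes were hardly separated. With the term for 3 livers explained below, 0 of the 7 were lower at that p. Adipoq and Lep, which define fat cells, were below background in both genotypes. Of 4 tested neural markers 2 were lower (Aqp4, given below, and Rbfox3, -0.39), with a median of -0.32 over the 4. The mean of the 4, as a difference from wt, was -0.52, -0.63 and -0.29 in Del/+ livers, against -0.18 to 0.16 in wt livers. That mean includes Aqp4, which alone differed by -1.36. No mean without Aqp4 was taken, so it is not a result apart from Aqp4. Of 4 gallbladder and gut markers 1 was higher (Tff3, 0.93) and 1 lower (Lgals4, -0.59). Genes of the interval separated the genotypes as labelled, as given below.

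Before any comparison, 3 of the livers have to be set apart. Del/+ 11, Del/+ 26 and wt 10 differed from every other liver in the genes of the daily clock, whatever their genotype. Arntl, the activator of the clock, had signals of 8.68, 8.93 and 5.05 in Del/+ 11, 26 and 28, against 8.08 in wt 10 and 4.39 to 5.75 in the other 5 wt livers. Its partner Npas2 read 8.07, 8.16 and 3.50 in the same Del/+ livers, against 7.19 in wt 10 and 2.85 to 3.83 in the other wt livers. Thus 2 of 3 Del/+ livers and 1 of 6 wt livers had high values of both genes, and Del/+ 28 lay with the remaining wt livers. Dbp, the albumin D-box binding protein, ran the other way, at 5.11, 5.21 and 9.96 in Del/+ livers, against 5.75 in wt 10 and 9.60 to 10.13 in the other wt livers. Per3 was at 3.87, 3.39 and 7.12 in Del/+ livers, against 3.69 in wt 10 and 6.44 to 7.65 in the other 5. Ciart, a repressor of the clock, was at 3.10, 3.82 and 8.35 in Del/+ livers, against 3.59 in wt 10 and 6.96 to 8.46 in the other 5. For none of these 5 genes did the values of Del/+ 11, Del/+ 26 and wt 10 overlap those of the other Del/+ and wt livers. Dbp, Per3 and Ciart, with Nfil3, were picked for display after their values were seen. The hour of collection is not given in the sources used here, and its part in any result was not tested.

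**Figure D1:**
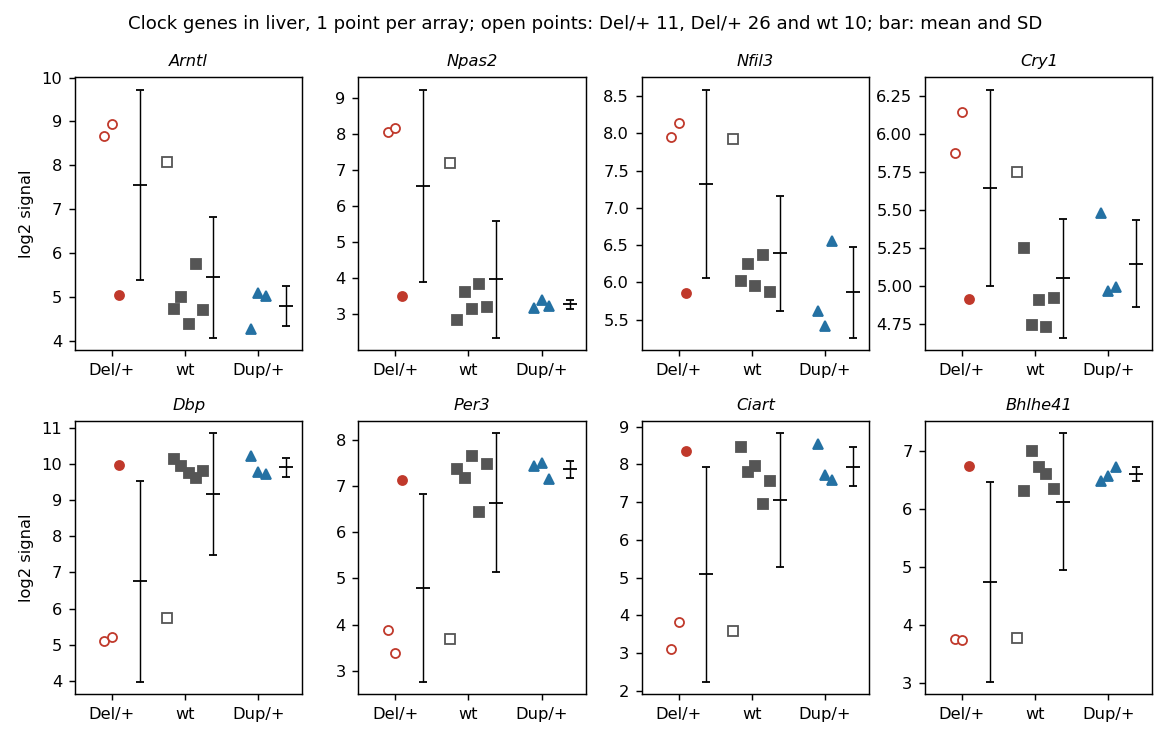
Log2 signal of 8 clock genes in liver, 1 point per array, in order of copy number, with the mean and SD of each genotype beside its points; open points are Del/+ 11, Del/+ 26 and wt 10. For Arntl the open points lie at 8.08 to 8.93 and all other Del/+ and wt livers at 4.39 to 5.75, whereas Dbp, Per3 and Ciart show the reverse order.

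The letters of the clock's binding sites can be read in the promoters of some of these genes. The 4 shown were picked because their genes hold such a site and mark both sides of that split. Ciart and Per3 were low and Arntl and Nfil3 high in the 3 livers. Npas2 and Dbp, which also mark the split, were not among the genes found with a site. Each is a RefSeq window of 300 bases from 250 before to 50 after the start, build GRCm38.p6, written along the gene's strand. Of the 2 windows of Arntl, the 1 that ranked first by number of such sites is shown. Capitals mark the E-box CACGTG in Ciart (chr3:95882179-95882478, minus strand), the D-box TTATGTAA in Per3 (chr4:151044616-151044915, minus strand), and the ROR element core TAGGTCA in Arntl (chr7:113207261-113207560, plus strand) and, as its reverse complement, in Nfil3 (chr13:52980990-52981289, minus strand).
Ciart: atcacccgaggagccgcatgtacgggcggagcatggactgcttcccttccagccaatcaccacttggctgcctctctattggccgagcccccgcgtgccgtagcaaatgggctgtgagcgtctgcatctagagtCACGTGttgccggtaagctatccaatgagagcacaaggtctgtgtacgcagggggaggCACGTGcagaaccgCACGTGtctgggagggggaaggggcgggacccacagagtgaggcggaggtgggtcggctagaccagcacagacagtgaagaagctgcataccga
Per3: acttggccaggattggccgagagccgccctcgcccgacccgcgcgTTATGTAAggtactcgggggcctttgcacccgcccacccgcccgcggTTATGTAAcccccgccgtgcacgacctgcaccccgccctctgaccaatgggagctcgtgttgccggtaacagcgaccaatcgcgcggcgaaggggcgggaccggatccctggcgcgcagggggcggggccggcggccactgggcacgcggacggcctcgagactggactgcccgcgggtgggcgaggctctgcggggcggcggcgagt
Arntl: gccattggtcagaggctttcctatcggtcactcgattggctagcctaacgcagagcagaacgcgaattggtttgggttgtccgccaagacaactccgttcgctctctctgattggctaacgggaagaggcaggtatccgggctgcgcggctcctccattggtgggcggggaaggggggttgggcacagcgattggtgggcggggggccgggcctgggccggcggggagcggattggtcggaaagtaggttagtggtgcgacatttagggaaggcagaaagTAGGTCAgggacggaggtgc
Nfil3: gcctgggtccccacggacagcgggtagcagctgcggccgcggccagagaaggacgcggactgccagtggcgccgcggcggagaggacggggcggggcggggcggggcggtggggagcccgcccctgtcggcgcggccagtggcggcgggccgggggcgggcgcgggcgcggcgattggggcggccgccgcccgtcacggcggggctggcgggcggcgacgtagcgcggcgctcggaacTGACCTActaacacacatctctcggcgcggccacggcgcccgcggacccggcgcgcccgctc

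Both strands of 32851 such windows were searched. CACGTG was in 7.15% of them, TAGGTCA in 2.61%, and a D-box (TTATGTAA or TTACGTAA) in 1.06%. Of the 18 clock genes tested, 16 had a window: Bhlhe41, Ciart, Cry1, Per1 and Tef held the E-box, Arntl and Nfil3 the ROR element core, and Per3 the D-box. The 3 E-boxes of Ciart start at -116, -58 and -44, and the 2 D-boxes of Per3 at -205 and -158. A match of letters is a description only.

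Brain arrays with the same mouse numbers and genotypes, normalized apart from liver, were set beside these livers. That a number stands for 1 animal in every tissue rests on the labels alone, and number 17, a wt liver here, is labelled wt in hippocampus but Del/+ in cerebellum. In hippocampus Ciart was lowest of 16 arrays in Del/+ 11, at 6.04, and next lowest in Del/+ 26, at 6.40, against a median of 7.56 over the other 14. In cerebellum it was at 7.02 in Del/+ 26 and 6.94 in wt 10, against a median of 8.09 over the other 10. In striatum it was at 6.97 in Del/+ 11 and 7.15 in wt 10, against a median of 8.34 over the other 14. Other brain arrays lay as low in cerebellum, down to 6.90, and in striatum, down to 6.70. None did in hippocampus, but Del/+ 7 and wt 6 followed closely there, at 6.43 and 6.50. Ciart was chosen from 7 clock genes compared this way after its values were seen. Nr1d1, low in the 3 livers, also ranked 1 and 2 of 16 from the lowest in hippocampus. It ranked 1 and 3 of 12 in cerebellum, but 5 and 4 of 16 in striatum. In all these brain arrays Arntl was above the median of the other arrays, and Dbp and Per3 were below it. Npas2 and Tef were less clear or opposite to liver. Npas2, high in the 3 livers, was at 9.17 and 8.996 in hippocampus of Del/+ 11 and 26, below the median of 9.21 over the other arrays, and Tef, low in the 3 livers, ranked 7 and 8 of 16 from the lowest in striatum and 5 and 6 of 12 in cerebellum.

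Over the 18 clock genes tested, 2 were higher (Npas2 and Arntl) and 3 lower (Nr1d2, Bhlhe40 and Dbp) in Del/+ livers at an unadjusted p under 0.05 in limma, none with an adjusted p below 0.946. Over all 9464 genes tested, 2.2% were lower and 2.64% higher at that p, and the counts of the lists below are to be read against these shares. The median difference was -0.93, and it was -0.53 without Del/+ 26 and -1.47 without Del/+ 28. With a term for the 3 livers added to the fit, chosen after seeing the data, it was 0.06, and no clock gene passed an unadjusted p under 0.05. Values from that fit are marked "with the term" below, and there 1.55% of all genes were lower and 3.86% higher at an unadjusted p under 0.05.

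Across the liver as a whole, no probe set passed 5% FDR between Del/+ and wt in limma (0% of 18982), and 1 passed 10% FDR (0.00527%). At an unadjusted p under 0.05, 977 probe sets differed (5.15%), of which 391 were lower (2.06%) and 586 higher (3.09%) in Del/+ livers. With the term the counts were 0 at 5%, 0 at 10% and 1123 (5.92%) at an unadjusted p under 0.05. Of 27 kept probe sets of the interval, 16 were lower and 0 higher at an unadjusted p under 0.05, and in 15 every Del/+ liver lay below every wt liver, which was so for 1.04% of all kept probe sets.

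The mean over the 22 interval genes that have kept probe sets listing no other gene was -0.49, -0.44 and -0.37 in Del/+ 11, 26 and 28, as differences from the wt mean. In wt livers it ranged from -0.12 through a median of 0.01 to 0.09. Both genotypes were separated without overlap, and Del/+ minus wt was -0.43, a ratio of 0.741. In Dup/+ livers the same mean was 0.43, 0.37 and 0.35 above wt.

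**Figure D2:**
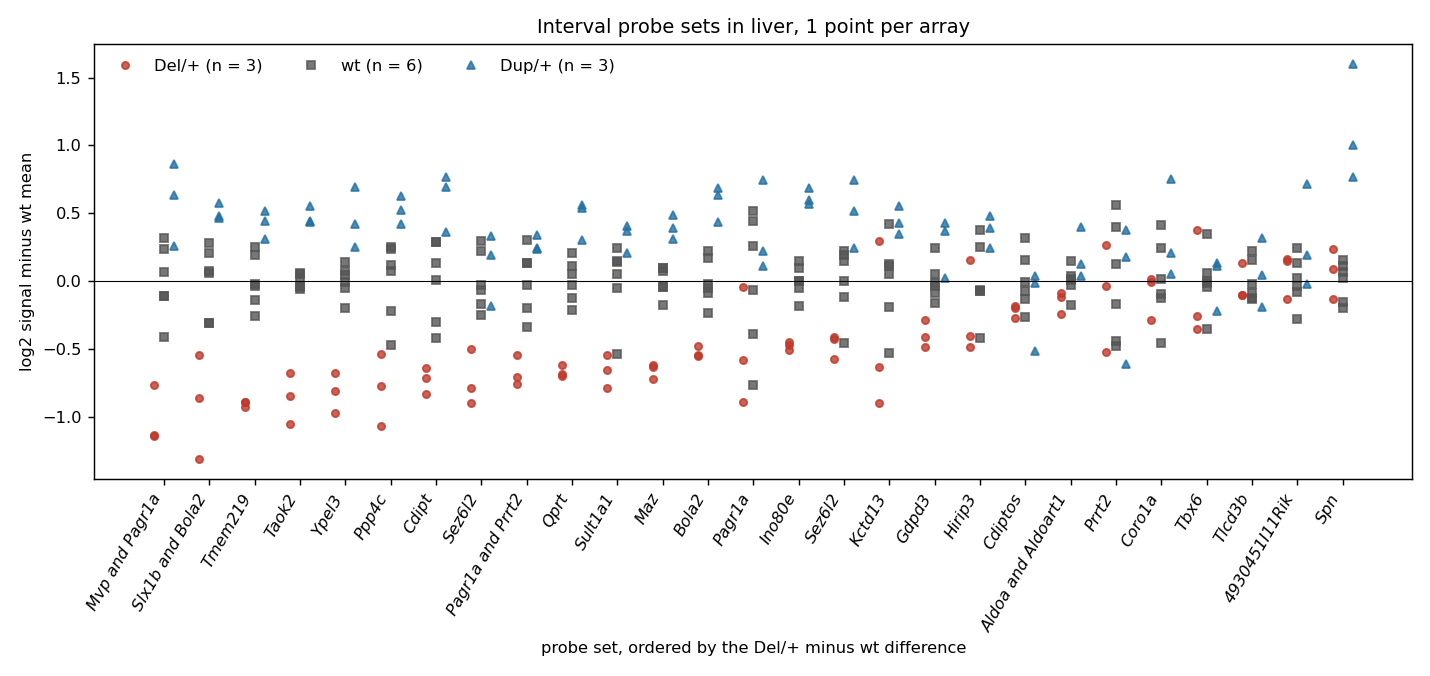
Signal of each kept interval probe set in liver as log2 difference from its wt mean, 1 point per array (Del/+, wt and Dup/+, in order of copy number), probe sets ordered by the Del/+ minus wt difference. From Mvp and Pagr1a at -1.02 to Bola2 at -0.53 the Del/+ points lie below all wt points, and from Prrt2 to Spn, at the right end, they mix with them.

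Signalling genes of the interval were among the most different. Taok2, a kinase of the TAO family that activates MAP kinase cascades, had signals of 7.36, 7.16 and 7.54 in Del/+ livers, against a lowest of 8.15, a median of 8.20 and a highest of 8.27 in wt livers. Its wt livers were tightly grouped and every Del/+ liver was below them. The difference was -0.86 ± 0.13 (SE), a ratio of 0.552, with an adjusted p of 0.145 in limma; with the term it was -0.78 (adjusted p = 0.434). Ppp4c, the catalytic subunit of protein phosphatase 4, read 7.84, 7.31 and 7.60 in Del/+ livers, against 7.90, 8.47 and 8.63 (lowest, median and highest) in wt livers, a difference of -0.79 ± 0.19 (adjusted p = 0.527), and -0.63 with the term. Ypel3, a small Yippee-like protein linked to growth arrest, was at 5.68, 5.84 and 5.97 in Del/+ livers, against 6.45, 6.67 and 6.79 in wt livers, a difference of -0.82 ± 0.15 (adjusted p = 0.287), and -0.71 with the term. Kctd13, an adaptor of the CUL3 ubiquitin ligase, divided instead along the 3 livers set apart. It was at 5.11, 4.84 and 6.03 in Del/+ livers, against 5.21 in wt 10 and up to 6.16 in the other wt livers, and its difference of -0.41 ± 0.25 came to 0.0004465 with the term.

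Enzymes and membrane proteins of the interval that hepatocytes make at high level also separated the genotypes. Qprt, which turns quinolinate into a precursor of NAD, had signals of 9.62, 9.54 and 9.56 in Del/+ livers, against 10.03, 10.25 and 10.45 in wt livers. All 3 Del/+ values were nearly alike and below every wt value, and the difference was -0.67 ± 0.14, a ratio of 0.629 (adjusted p = 0.527), and -0.60 with the term. Cdipt, the phosphatidylinositol synthase, was at 8.51, 8.40 and 8.59 in Del/+ livers, against 8.81, 9.30 and 9.52 in wt livers, a difference of -0.73 ± 0.19 (adjusted p = 0.625), and -0.56 with the term. Sult1a1, a phenol sulfotransferase, was at 9.31, 9.07 and 9.20 in Del/+ livers, against 9.32, 9.95 and 10.10 in wt livers. Its lowest wt value, that of wt 49, was just above Del/+ 11, and the difference was -0.66 ± 0.17 (adjusted p = 0.627), and -0.71 with the term. Tmem219, a receptor for IGFBP3, was at 7.12, 7.16 and 7.15 in Del/+ livers, against 7.79, 8.02 and 8.29 in wt livers, a difference of -0.90 ± 0.15 and a ratio of 0.535 (adjusted p = 0.188), and -0.82 with the term.

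Among nuclear proteins, Maz, a zinc finger transcription factor, had a difference of -0.66 ± 0.13 (adjusted p = 0.495) and Ino80e, a subunit of the INO80 chromatin remodelling complex, one of -0.47 ± 0.13 (adjusted p = 0.627), both without overlap of the genotypes; with the term they differed by -0.63 and -0.46. Bola2, which acts in the delivery of iron-sulfur clusters, differed by -0.53 ± 0.14 (adjusted p = 0.627), and by -0.43 with the term. Joint probe sets that list 2 genes cannot be assigned to either: Mvp and Pagr1a together differed by -1.02 ± 0.19, Slx1b and Bola2 by -0.90 ± 0.19, and Pagr1a and Prrt2 by -0.67 ± 0.16; with the term these were -0.80, -0.68 and -0.57. Of the 3 probe sets of Sez6l2, a neuronal membrane protein, 2 were kept, with differences of -0.73 and -0.47 at wt medians of 3.63 and 4.54, and the one left out was below background. The Del/+ mean of the first, 2.95, was below background too.

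The remaining interval genes showed smaller differences. Gdpd3 differed by -0.40, without overlap of the genotypes, Hirip3 by -0.24, Cdiptos by -0.22, Prrt2 by -0.10, Coro1a by -0.09, Tbx6 by -0.08, Tlcd3b by -0.03 and 4930451I11Rik by 0.06, and wt medians of these 8 lay between 3.19 and 5.02. Pagr1a on its own probe set differed by -0.51 ± 0.29. For Gdpd3 and Pagr1a the Del/+ means of 2.82 and 2.79 were below background. The joint probe set of Aldoa, a glycolytic aldolase, and Aldoart1 differed by -0.15 ± 0.14. Spn, the sialophorin of leukocytes and the last gene of the interval, stood at 3.43, 3.80 and 3.65 in Del/+ livers, against 3.37, 3.61 and 3.72 in wt livers, a difference of 0.06 ± 0.18. In Dup/+ livers it was at 5.17, 4.57 and 4.33, a Dup/+ minus wt difference of 1.12 ± 0.18. The probe sets of Asphd1, Kif22, Zg16 and AI467606 did not pass the filter.

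Without the shared wt livers, Del/+ against Dup/+ gave 16 probe sets at 5% FDR (0.0843%). Of these, 11 were of the interval: Bola2, Ypel3, Cdipt, Ppp4c, Ino80e, Taok2, Tmem219, Maz, Qprt and both joint probe sets of Slx1b and Bola2 and of Mvp and Pagr1a. Aqp4, Lrtm1 and Bmp7 were the 3 others that list a gene. Dup/+ against wt gave 0 at 5% and at 10% FDR, and 716 (3.77%) at an unadjusted p under 0.05. The sum of both differences from wt, a test of departure from mirror symmetry, gave 0 at 5% FDR and 579 (3.05%) at an unadjusted p under 0.05. Of 23 genes tested within 1 Mb of the interval, 0 passed an unadjusted p under 0.05, and their median difference was 0.03 (-0.04 to 0.07 with 1 liver left out), as was that of all 9464 genes tested. Sh2b1, an adaptor of leptin and insulin signalling on the flank, differed by -0.05 ± 0.19.

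Outside the interval, the single probe set at 10% FDR was that of Aqp4, a water channel best known from astrocytes. It had signals of 4.58, 4.55 and 4.63 in Del/+ livers, against 5.76, 5.88 and 6.40 in wt livers. The 3 Del/+ livers were nearly alike and far below the lowest wt liver. The difference was -1.36 ± 0.18 (SE), a ratio of 0.389 (adjusted p = 0.0658), and with the term -1.37 (adjusted p = 0.434). The array numbers fall into 3 runs, each with 1 Del/+ and 2 wt livers, and within them it was -1.31, -1.54 and -1.25. With 1 Del/+ or wt liver left out in turn its adjusted p ranged from 0.0825 to 0.6957, and it stayed below 0.1 only without Del/+ 28 or wt 29. Of other glial genes, Gfap had means below background in both genotypes, and Mbp averaged 3.92 in Del/+ livers and 3.95 in wt livers. The neural marker list as a whole, which holds Aqp4, is given above, and its part in the result was not tested. In the brain regions Aqp4 differed by -0.03 in hippocampus, -0.12 in striatum and -0.02 in cerebellum.

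Cyp2b9, a cytochrome P450 that is higher in female than in male mouse liver, was next by p among the lower genes outside the interval. Its signals were 3.48, 2.04 and 2.22 in Del/+ livers, against 4.43, 5.28 and 6.24 in wt livers. Del/+ 26 and 28 were below background and Del/+ 11 just above, whereas every wt liver was well above it. The fitted difference was -2.69 ± 0.47 (adjusted p = 0.287), and -2.83 with the term (adjusted p = 0.434). With Del/+ values below background set to it, the signal was at least 4.04-fold lower in Del/+ livers. Cyp2b genes are near-identical copies and their probe sets may share signal. Lrtm1, a membrane protein with leucine-rich repeats, was at 5.67, 5.14 and 4.48 in Del/+ livers, against 5.82, 6.61 and 7.36 in wt livers. Its highest wt value was that of wt 10, and its difference of -1.55 ± 0.34 (adjusted p = 0.527) became -1.99 with the term. Bmp7, a bone morphogenetic protein, was at 4.98, 5.01 and 4.74 in Del/+ livers, against 5.34, 5.53 and 5.87 in wt livers, a difference of -0.64 ± 0.15 (adjusted p = 0.527), and -0.64 with the term.

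The other lower genes named by smallest p were Me1 and Mogat1, given below with lipid synthesis, Ctse at -0.78, Erbb4 at -0.80, Tbc1d16 at -0.73, Gm19619 at -0.64, Fam131c at -0.72 and Rnf152 at -0.75. None of them passed 10% FDR, and with the term Erbb4 differed by -0.59, Tbc1d16 by -0.49 and Rnf152 by -0.52. Erbb4 is a receptor tyrosine kinase for neuregulins and Ctse an aspartic protease. For Atp11a, a phospholipid flippase, the difference was 0.78 ± 0.22, with values of 7.83, 7.79 and 6.81 in Del/+ livers, against 7.08 in wt 10 and 6.42 to 6.83 in the other wt livers, and with the term it was 0.44. Gpc1, a glypican, differed by -0.50 ± 0.21.

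**Figure D3:**
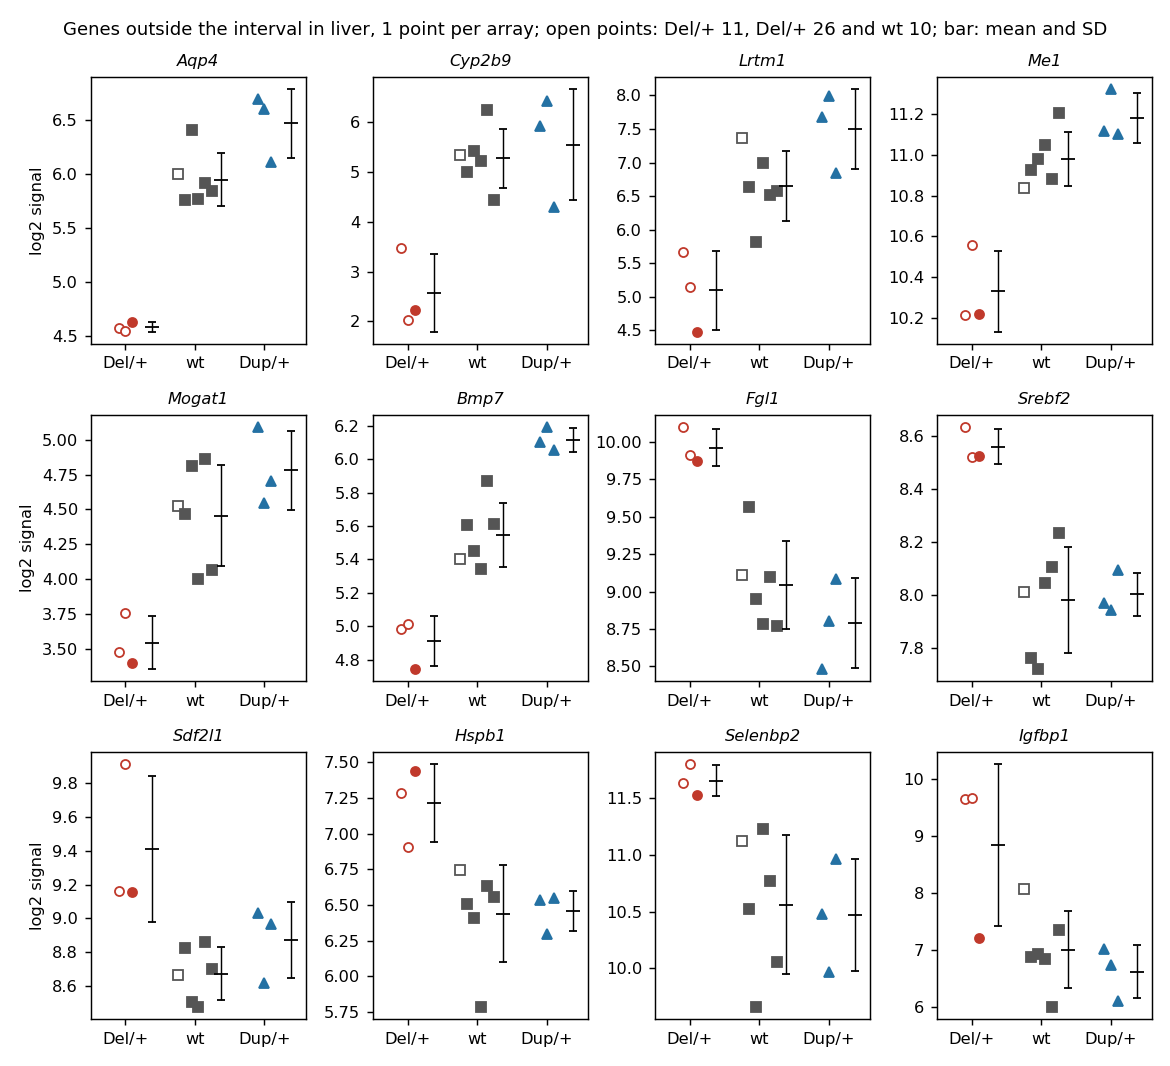
Log2 signal of 12 genes outside the interval in liver, 1 point per array, in order of copy number, with the mean and SD of each genotype; open points are Del/+ 11, Del/+ 26 and wt 10. In all panels but Igfbp1 the 3 Del/+ points lie clear of the wt points, and in Igfbp1 Del/+ 28 lies among them at 7.20.

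Among the 12 higher genes, Fgl1, a fibrinogen-like protein that hepatocytes secrete, came first. Its signals were 10.10, 9.91 and 9.87 in Del/+ livers, against 8.77, 9.02 and 9.56 in wt livers. All Del/+ livers exceeded all wt livers, and the difference was 0.92 ± 0.19, a ratio of 1.89 (adjusted p = 0.527); with the term it was 0.87. Tff3, a trefoil peptide of mucous epithelia, was at 6.96, 6.16 and 5.81 in Del/+ livers, against 5.01, 5.41 and 5.62 in wt livers, a difference of 0.93 ± 0.23. Capn8, a calpain protease, differed by 0.96 ± 0.21, from 5.14, 5.67 and 4.60 in Del/+ livers, against 3.86, 4.21 and 4.42 in wt livers. Both were nearest to wt in Del/+ 28, and with the term the differences were 0.68 and 0.70. Fam222a (1.28), Zfp469 (0.64), Tmem218 (0.54), Zfp781 (0.89), Rnf144a (0.61) and Gm15760 (0.78) were the others beside Srebf2, Sdf2l1 and Hspb1, which are given with their groups, and 11 of the 12 had no overlap between genotypes, Fam222a being the exception; every Del/+ liver exceeded every wt liver in 1.46% of all kept probe sets, and the 12 were picked by p. All had an adjusted p of at least 0.527.

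Lipid synthesis genes lay on the lower side. Of 24 listed genes of fatty acid and triglyceride synthesis, 23 were measured and 14 tested, and in all 14 the Del/+ mean was below the wt mean, 5 at an unadjusted p under 0.05, with a median of -0.50; over all 9464 genes 2.2% were lower at that p, and the median was 0.03. Me1, the malic enzyme that supplies NADPH for fatty acid synthesis, had signals of 10.21, 10.56 and 10.22 in Del/+ livers, against 10.84, 10.95 and 11.20 in wt livers. It was below every wt liver in all 3, a difference of -0.65 ± 0.14 (adjusted p = 0.527), and -0.64 with the term. Mogat1, which acylates monoacylglycerol, was at 3.47, 3.76 and 3.40 in Del/+ livers, against 3.999, 4.50 and 4.86 in wt livers, a difference of -0.91 ± 0.22 (adjusted p = 0.527), and -0.99 with the term. Acaca, the acetyl-CoA carboxylase that makes malonyl-CoA, differed by -0.50 ± 0.17 and Lpin2, a phosphatidate phosphatase, by -0.51 ± 0.21, with Del/+ 28 at 10.03 within the wt range. Elovl6, a fatty acid elongase, differed by -0.52. With the term, 12 of the 14 were lower, 3 of them at an unadjusted p under 0.05 (1.55% of all genes), and the median was -0.25. Without Del/+ 11 the median was -0.24. As a mean over the list, Del/+ livers stood at -0.62, -0.21 and -0.39 from wt, against -0.37 in wt 10, -0.26 in wt 29 and up to 0.40 in the others, so the genotypes overlapped. In Dup/+ livers the median of the same genes was 0.25 above wt; both comparisons share the wt livers.

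Fat storage and oxidation genes had smaller shifts. Of 21 tested genes of lipid droplets and PPARG targets, 2 were lower at an unadjusted p under 0.05 and 0 higher, with a median of -0.27; with the term 3 were lower and the median was -0.23. Without the term, the 2 lower genes were Cd36, the fatty acid translocase, at -0.80 ± 0.34, and Fitm1, which partitions triglyceride into droplets, at -0.45 ± 0.19. Pparg and Cidec, the next by p, differed by -0.57 and -1.06. The adipocyte markers share at least Cidec with this list, and both lists had the same lowest and highest difference (-1.06 and 0.39). Those markers had a median of -0.33, and their part in the result was not tested. Of 24 tested genes of fatty acid oxidation and PPARA targets, 4 were lower and 0 higher, with a median of -0.25: Acaa1b, a peroxisomal thiolase, at -0.44 ± 0.15, Vnn1 at -0.77 ± 0.29, Acot4 at -0.83 ± 0.34 and Ppara itself at -0.48 ± 0.22. Ppara was at 8.99, 8.56 and 9.61 in Del/+ livers, against 9.16 in wt 10 and 9.53 to 9.85 in the other wt livers, and with the term its difference was -0.17. With the term 1 of the 24 was lower and the median was -0.23, and without Del/+ 26 or wt 29 it was -0.13 or -0.15.

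Cholesterol synthesis genes lay on the opposite side from fatty acid synthesis genes. All 15 tested of 21 listed had a higher mean in Del/+ livers, 4 at an unadjusted p under 0.05, with a median of 0.33 against 0.03 over all genes, of which 2.64% were higher at that p. The 4 were Mvk and Mvd of the mevalonate steps, at 0.66 ± 0.23 and 0.74 ± 0.26, and Dhcr7 and Msmo1 of the late sterol steps, at 0.42 ± 0.16 and 0.45 ± 0.20. Dhcr7 was at 8.26, 8.0003 and 7.87 in Del/+ livers, above the highest wt value of 7.79. Srebf2, the transcription factor that drives this pathway, was at 8.63, 8.52 and 8.52 in Del/+ livers, against 7.72, 8.03 and 8.23 in wt livers. Its 3 Del/+ livers were above every wt liver, a difference of 0.58 ± 0.15 (adjusted p = 0.617), and 0.56 with the term. Its list, sterol control, had 1 higher and 0 lower of 10 tested, and a median of -0.10, which was 0.0217 without Del/+ 26; Abcg8, Abcg5 and Stard4 followed at -0.45, -0.44 and -0.26. With the term, all 15 synthesis genes stayed on the higher side, 1 of them at an unadjusted p under 0.05 (3.86% of all genes), and the median was 0.18. Without Del/+ 11 it was 0.21, and with the 3 livers left out 0.13. As a mean over the list, Del/+ livers stood at 0.56, 0.33 and 0.14 from wt, against -0.32 to 0.32 in wt livers, with Del/+ 28 inside the wt range.

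**Figure D4:**
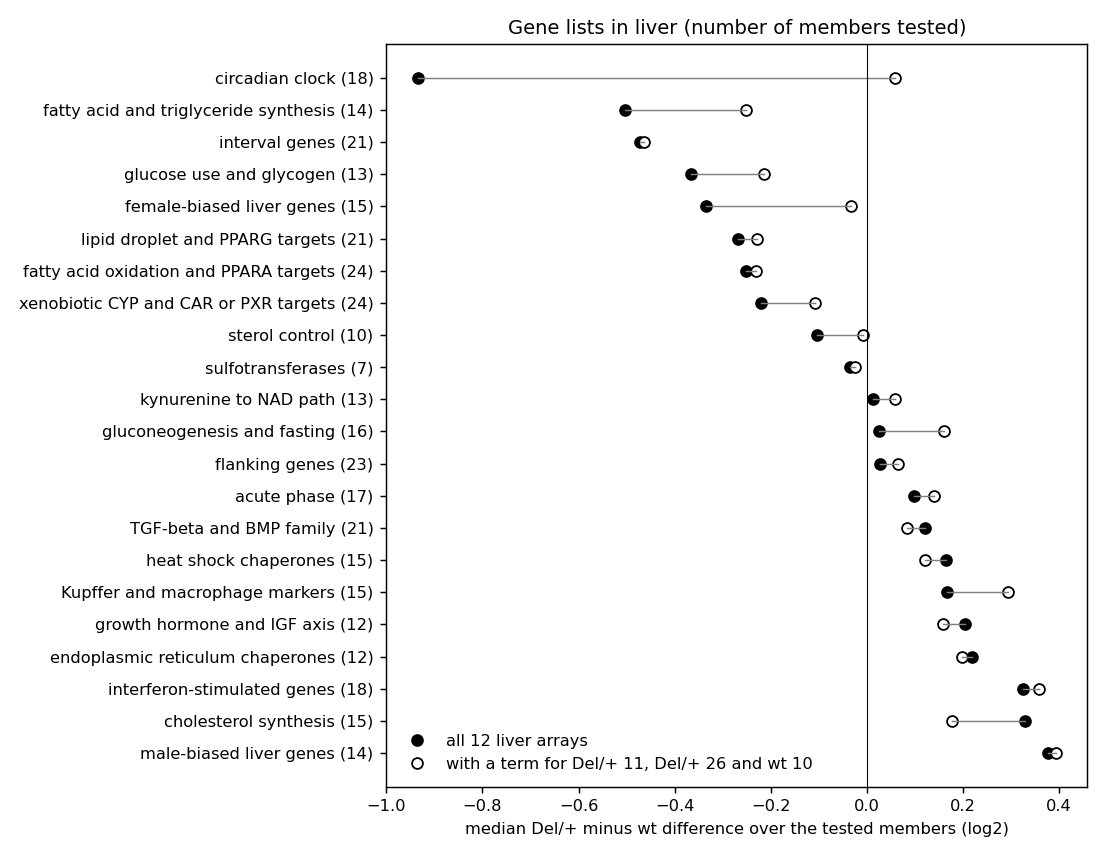
Median Del/+ minus wt difference (log2) over the tested members of 22 gene lists in liver, with all 12 liver arrays in the fit (filled) and with a term for Del/+ 11, Del/+ 26 and wt 10 (open); the number of members tested is in brackets. Circadian clock genes lie at -0.93 without and 0.06 with the term, fatty acid and triglyceride synthesis at -0.50 and -0.25, and male-biased genes at 0.38 and 0.39.

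Glucose use and glycogen genes were lower in 5 of 13 tested at an unadjusted p under 0.05, against 2.2% of all genes, with a median of -0.37, and of -0.21 with the term. Slc2a2, the glucose transporter of hepatocytes, differed by -0.51 ± 0.18, Gbe1, the glycogen branching enzyme, by -0.39 ± 0.14, Khk, the fructokinase, by -0.37 ± 0.14, Gys2, the liver glycogen synthase, by -0.55 ± 0.25, and Pklr, the pyruvate kinase, by -0.53. Of the first 4, Gbe1 and Khk had no overlap between genotypes. Gys2 was at 9.97, 10.03 and 11.08 in Del/+ livers, against 10.29 in wt 10 and 10.82 to 11.18 in the other wt livers. With the term, 0 of the 13 were lower and 1 was higher at an unadjusted p under 0.05. Gluconeogenesis and fasting genes had 2 higher of 16, Igfbp1 and Irs2, and a median of 0.02 (-0.0215 to 0.0935 with 1 liver left out). Irs2, a docking protein of the insulin receptor, differed by 0.65 ± 0.19, Slc37a4 by -0.48 and Gpt by -0.32.

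Igfbp1, a secreted IGF binding protein, had signals of 9.64, 9.67 and 7.20 in Del/+ livers, against 8.07 in wt 10 and 6.00 to 7.35 in the other wt livers. Among these livers the highest values were those of Del/+ 11 and 26, and the next that of wt 10. The difference of 1.83 ± 0.52 (adjusted p = 0.724) was 0.93 with the term. In the growth hormone and IGF list, 3 of 12 were higher at an unadjusted p under 0.05: Igfbp1, Igfbp2 at 0.51 ± 0.19, and Socs2, a feedback inhibitor of growth hormone signalling, at 1.23 ± 0.52 and 0.70 with the term. Stat5b differed by 0.32. Cdkn1a, a cell cycle inhibitor chosen after its values were seen, was at 7.17, 7.83 and 5.44 in Del/+ livers, against 6.90 in wt 10 and 4.77 to 5.26 in the other wt livers, and its difference of 1.49 ± 0.51 was 0.51 with the term.

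Genes with a sex bias in mouse liver depend on the pattern of growth hormone release. Of 14 tested male-biased genes, 5 were higher and 0 lower at an unadjusted p under 0.05, against 2.64% of all genes, with a median of 0.38, and 4 were higher with the term. With the 3 livers left out the median was 0.19. Selenbp2 was at 11.63, 11.80 and 11.53 in Del/+ livers, against 9.66, 10.65 and 11.23 in wt livers, a difference of 1.09 ± 0.32 (adjusted p = 0.724), without overlap. Mup21, one of the near-identical major urinary protein genes, differed by 0.76 ± 0.31, Cyp7b1, an oxysterol hydroxylase, by 0.42 ± 0.17, C8a, a complement component, by 0.35 ± 0.15, and Moxd1 by 2.05, with Del/+ values of 8.32, 6.86 and 3.05, and by 0.42 with the term. Of 15 tested female-biased genes, 2 were lower and 1 higher, both without and with the term. Cyp2b9 is given above, Abcd2, a peroxisomal transporter, differed by -1.25 ± 0.36, and Cyp2c69 by 0.81 ± 0.23, the last with near-identical Cyp2c copies. Cyp2c40 differed by 0.50. All the mice were males.

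Drug metabolism genes were lower in 3 of 24 tested at an unadjusted p under 0.05, against 2.2% of all genes, with a median of -0.22; with the term 1 was lower and the median was -0.11. The 3 were Cyp3a59 at -0.69 ± 0.19, Cyp2c38 at -0.63 ± 0.27 and Nr1i2, the receptor PXR, at -0.34 ± 0.15, with Cyp2f2 next at -0.44. Sulfotransferases had 2 lower of 7, Sult1a1 of the interval and Sult1c2 at -0.66 ± 0.22; Sult5a1 differed by 0.46 and Papss1 by 0.12. In the path from kynurenine to NAD, 1 of 13 was lower, Qprt, and 2 were higher. Acmsd, which diverts the substrate of that path away from quinolinate, was at 8.94, 8.12 and 7.46 in Del/+ livers, against 6.88, 7.25 and 7.71 in wt livers, a difference of 0.90 ± 0.27 (adjusted p = 0.740) and 0.51 with the term. Nnmt, which methylates nicotinamide, differed by 0.54 ± 0.19 and Aadat by 0.35.

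Interferon-stimulated genes were higher in 5 of 18 tested and lower in 0 at an unadjusted p under 0.05, with a median of 0.33. Ifit1 was at 6.64, 6.02 and 6.51 in Del/+ livers, against 5.43, 5.85 and 6.02 in wt livers, a difference of 0.62 ± 0.23 (adjusted p = 0.929). Usp18, which removes ISG15 from proteins, differed by 0.69 ± 0.29, Rsad2 by 0.50 ± 0.19 and Mx2 by 0.37 ± 0.17. With the term 5 were higher and the median was 0.36. The mean of the list, as a difference from wt, was 0.35, 0.12 and 0.39 in Del/+ livers, and in wt livers it was highest in wt 16 and wt 48, at 0.18 and 0.31. The mean of the Kupffer cell and macrophage markers was 0.18, -0.06 and 0.36 in the same Del/+ livers, and 0.57 and 0.54 in wt 16 and wt 48. Both lists were lowest among Del/+ livers in Del/+ 26 and highest among wt livers in wt 16 and wt 48, and the part of macrophages in the result was not tested.

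The acute phase list had 2 higher of 17, Fgl1 and Saa2, a serum amyloid A at 0.76 ± 0.33 whose copies are near-identical, with Stat3 at 0.29 and Orm3 at -0.51 next; with the term 4 were higher. Of 15 heat shock chaperones tested, 3 were higher at an unadjusted p under 0.05 and 0 lower, with a median of 0.16, which was 0.12 with the term and 0.0578 without Del/+ 26. Hspb1, a small heat shock protein, was at 7.28, 6.91 and 7.44 in Del/+ livers, against 5.79, 6.53 and 6.74 in wt livers, a difference of 0.77 ± 0.21 (adjusted p = 0.627). Hsph1 differed by 0.59 ± 0.17, Hsp90aa1 by 0.44 ± 0.16, and Hspa8 by -0.47 ± 0.25. Of 12 endoplasmic reticulum chaperones tested, 3 were higher and 0 lower, with a median of 0.22, which was 0.20 with the term, 0.0637 without Del/+ 26 and 0.38 without Del/+ 11. Sdf2l1 was at 9.16, 9.91 and 9.16 in Del/+ livers, against 8.48, 8.68 and 8.86 in wt livers, a difference of 0.74 ± 0.19 (adjusted p = 0.625). Derl3 and Syvn1, both of the degradation machinery of that compartment, differed by 0.82 ± 0.27 and 0.37 ± 0.14, and Creld2 by 0.49. Of the Del/+ and wt livers, Del/+ 26 was the highest for Sdf2l1, Derl3, Syvn1 and Creld2.

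In the TGF-beta and BMP family 2 of 21 were lower, Bmp7 and Inhbe at -0.79 ± 0.32, and 2 were higher, Id4 at 0.37 ± 0.16 and Fst, the activin binder follistatin, at 0.84 ± 0.37. Fst was at 6.34, 6.26 and 4.56 in Del/+ livers, against 5.202 in wt 10 and 4.07 to 5.32 in the other wt livers, and differed by 0.35 with the term. Over all genes 2.2% were lower and 2.64% higher at that p, and with the term 1 of the 21 was lower and 1 higher.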

How the data were processed

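Liver total RNA was read on whole-transcript Affymetrix mouse gene arrays, 1 per mouse. Expression Console was the authors' software, and they applied quantile normalization to brain and liver separately; the version, background correction and probe summary are not given in the sources used here. The deposited values are log2 signals, a scale read from their range of 0.57 to 13.57. Of 41155 probe sets, 23521 list 1 gene, 1820 several and 15814 none, by the platform annotation, with gene order from RefSeq GRCm38.p6. Some genes are not reported here. Following the study's filter, probe sets were kept whose highest signal reached the liver median (3.61) and whose variance exceeded the 25th percentile, leaving 18982.

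Means of the 3 groups over the 12 liver arrays were fitted with limma 3.58.1 (R 4.3.3), two-sided, Benjamini-Hochberg over kept probe sets; ± is the SE. The fit was tested on simulated data. Tables and plots used Python 3.11.15 with pandas 2.3.3. Gene lists were counted with 1 probe set per gene (9464 genes). Named were all interval genes, the 12 higher and 12 lower genes of smallest p outside it, and the 4 members of smallest p of each list described. Also named were 6 genes known from earlier results, the tissue markers, and the passing members of a list where 5 passed. In the interferon list, only 4 of the 5 that passed are named. The members, lists and rules were chosen with earlier results of these data known. Alternatives changed the filter, the arrays in the fit, a block for array run, moderation, normalization, a copy number slope and single arrays left out; the term for 3 livers and their removal were chosen after seeing the data. The number of arrays limits the precision.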

Additional observations from a re-analysis of the deposited data

Results flagged for a closer look

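Among the 6 wt livers, 15 of 132 named genes had a liver far from the other 5 (gap over range above Dixon's critical value of 0.625), and chance alone marks about 1 group in 20. In 10 of the 15 genes that liver was wt 10, but 5 of these, Dbp, Per3, Ciart, Nfil3 and Cdkn1a, were picked after their values had shown that split, so the count cannot be set against chance. Its values were 8.08 for Arntl, 7.19 for Npas2, 7.92 for Nfil3 and 6.90 for Cdkn1a, above the other wt livers. They were 5.75 for Dbp, 3.69 for Per3, 3.59 for Ciart, 8.02 for Nr1d2, 8.24 for Bhlhe40 and 6.79 for Tbc1d16, below the other wt livers.

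The others were single genes in different livers. Sult1a1 was low in wt 49 (9.32, against 9.81 to 10.10 in the others) and Pparg was high there (9.48, against 8.42 to 8.74). Tmem218 was high in wt 48 (6.40, against 5.99 to 6.14), Hspb1 low in wt 17 (5.79, against 6.41 to 6.74) and Acot4 high in wt 29 (7.84, against 6.52 to 6.87).

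Srebf2 stood opposite in 2 tissues: every Del/+ cerebellum lay below every wt cerebellum, a difference of -0.18, whereas every Del/+ liver lay above every wt liver, by 0.58. In limma on cerebellum alone its unadjusted p was 0.0442 and its adjusted p 0.9985. It was found by searching named genes without overlap in liver for the opposite order in any brain region, so it cannot be set against chance. The difference between tissues was not tested.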

How the results depend on the processing

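The mean interval difference of -0.43 stayed between -0.46 and -0.40 with any 1 liver left out. The count at 5% FDR (0) was 2 with no filter, 2 with trend and robust moderation, 1 after quantile normalization again, 16 for a copy number slope and 0 to 1 with 1 liver left out (1 without Del/+ 28). Interval probe sets among them (0) numbered 1, 1 and 11 with no filter, trend moderation and the slope, and outside ones (0) numbered 1, 1, 1 and 3 with no filter, trend moderation, quantile normalization again and the slope, 0 to 1 with 1 liver left out, and 1 when adjusted over gene-listing probe sets. The count at 10% FDR (1) was 3 with no filter, 3 with trend moderation, 3 after quantile normalization again, 17 for the slope, and 0 for the 9 Del/+ and wt arrays alone, with array run as a block, with the term, and with the 3 livers left out; it ranged from 0 to 6 with 1 liver left out. Unadjusted p-values under 0.05 (977 of 18982 kept probe sets) numbered 1937 with no filter, over all 41155 probe sets. The larger count thus rests on more probe sets tested. Aqp4 had an adjusted p of 0.038, 0.0407, 0.0348 and 0.00898 with no filter, trend moderation, quantile normalization again and the slope. With single livers left out its adjusted p was higher, from 0.0825 to 0.6957, and it passed 5% FDR in none of those fits. Taok2 had 0.038, 0.0407 and 0.00898 with no filter, trend moderation and the slope.

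The clock median (-0.93) was 0.058 with the term and 0.14 with the 3 livers left out, and -1.47 to -0.53 with 1 liver left out. The glucose median was -0.20 for the slope and -0.21 with the term, the growth hormone median -0.034 with the 3 left out, the female-biased median -0.11 for the slope, -0.0339 with the term and -0.10 with the 3 left out, the xenobiotic median -0.0838 for the slope, the heat shock median 0.0419 for the slope, and the endoplasmic reticulum median 0.11 for the slope and 0.0637 to 0.38 with 1 liver left out. With the term, signs turned for Coro1a (0.0856), Kctd13 (0.0004465), Prrt2 (0.0815), Sh2b1 (0.17), Ciart (0.28) and Nfil3 (-0.0698). With the 3 livers left out, which leaves 1 Del/+ liver assumed to vary like the other groups, they turned for Kctd13 (0.19), Prrt2 (0.24), Sh2b1 (0.21), Ppara (5.28e-06), Gys2 (0.0407), Slc37a4 (0.0458), Stat5b (-0.026), Papss1 (-0.0487), Inhbe (0.0178), Fst (-0.25), Dbp (0.12), Ciart (0.605) and Nfil3 (-0.23). For the slope they turned for 4930451I11Rik (-0.12), Spn (-0.53), Tbc1d10b (-0.000703) and Marco (-0.22). With 1 liver left out, Coro1a ranged from -0.19 to 0.001408, Tbx6 from -0.31 to 0.0605, Tlcd3b from -0.10 to 0.0184, Prrt2 from -0.28 to 0.12, Spn from -0.0225 to 0.16 and Sh2b1 from -0.22 to 0.0682. No paired analysis was possible because the liver Del/+ and wt mice share no numbers. The cause of these shifts was not tested. Joint probe sets and near-identical gene copies limit assignment, and signals near background compress differences.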
